A study of Mus musculus with 4 samples.

Results

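The Tet, Dnmt and Asxl genes were examined for N6-methyladenosine (m6A) on their mRNAs in mouse c-Kit+ hematopoietic cells. The set holds 9 of the 21851 protein-coding genes considered, namely Dnmt1, Dnmt3a, Dnmt3b, Uhrf1, Tet1, Tet2, Tet3, Asxl1 and Asxl2. A gene was said to carry a peak when the summit of an m6A peak lay in one of its exons in the GENCODE M21 annotation of GRCm38 (mm10). By this rule 15 of 15635 peaks of replicate 1 and 15 of 14872 peaks of replicate 2 belonged to the set.

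m6A meRIP-seq pulls down RNA fragments that carry m6A with an antibody and finds where they pile up over RNA that was not pulled down. The series has 4 samples, all from C57BL/6 foetal liver cells that had been enriched for the progenitor marker Kit with magnetic beads. These are m6A immunoprecipitation (IP) replicates 1 and 2, with total RNA as the labelled molecule, and input replicates 1 and 2, with polyA RNA. Whether this difference in labelled RNA affects the fold enrichments was not tested. By the methods the cells were of the control genotype (floxed Ythdf2, with the m6A reader Ythdf2 intact), so that the series holds no second condition, and the replicates were biological. The age of the embryos and the number pooled per replicate are not given in the sources used here. The 2 IP peak lists were analysed, and no reads were analysed here.

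The members place, maintain and oxidise 5-methylcytosine in DNA or act on chromatin beside it. Dnmt3a and Dnmt3b place new methyl groups, Dnmt1 copies them after replication, and Uhrf1 brings Dnmt1 to hemimethylated DNA. Tet1, Tet2 and Tet3 oxidise 5-methylcytosine, and Asxl1 and Asxl2 are partners of the histone H2A deubiquitinase Bap1. In blood, TET2, DNMT3A and ASXL1 are among the genes most often mutated in clonal hematopoiesis and myeloid malignancy. m6A is a separate mark on RNA, placed by Mettl3 and Mettl14 mostly within the motif DRACH (where D means any base but C, R a purine and H any base but G), and most often around stop codons and in long exons.

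Of the 9 genes, 6 carried a peak in both replicates (Tet2, Tet3, Dnmt3a, Asxl1, Asxl2 and Uhrf1). Tet1 carried a peak in replicate 1 only. Dnmt1 and Dnmt3b carried none, and no peak of either list lay anywhere between the ends of these 2 genes. The set thus had a peak for 7 of 9 genes in replicate 1 and 6 of 9 in replicate 2, whereas the share of all protein-coding genes was 34.4% in replicate 1, 33.5% in replicate 2 and 30.9% in both. The members have long transcripts, the shortest being that of Uhrf1 with 3586 nt. Among the 6709 protein-coding genes with a transcript at least that long the shares were 48.4%, 47.8% and 45.0%. No test was made on the members' count, and 9 genes are too few to place the set apart from long genes as a whole. A peak needs both the modification and enough RNA, so a gene without a peak can lack either.

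The values of each peak are the fold enrichment of IP over background at the summit and the q-value of MACS2, as deposited, given as −log10 q. In the whole series the median exonic peak had a fold enrichment of 4.18 in replicate 1 and 4.39 in replicate 2. The number of IP reads at a summit was computed from the deposited fold and p together, and its median over all peaks was 57 in each replicate. Intervals given with a fold are exact 95% Poisson intervals of these IP reads with the background held fixed. They cover counting error only, and PCR duplicates and the error of the background would add to them. Of the markers of the labelled cells, Cd34, Gata2, Runx1 and Spi1 had a peak in both replicates and Kit, Myb and Ptprc had none. The erythroid genes Klf1 and Epor had peaks in both, Tfrc in replicate 1 only and Gata1 in neither. Among 5 hepatocyte markers Hnf4a and Apoa1 had peaks in both, Afp in replicate 1 only (on 7 IP reads), and Alb and Ttr in neither. These peaks do not give the level of the RNA, and which cells of the enriched fraction carried any of the peaks described here was not tested.

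**Figure D1:**
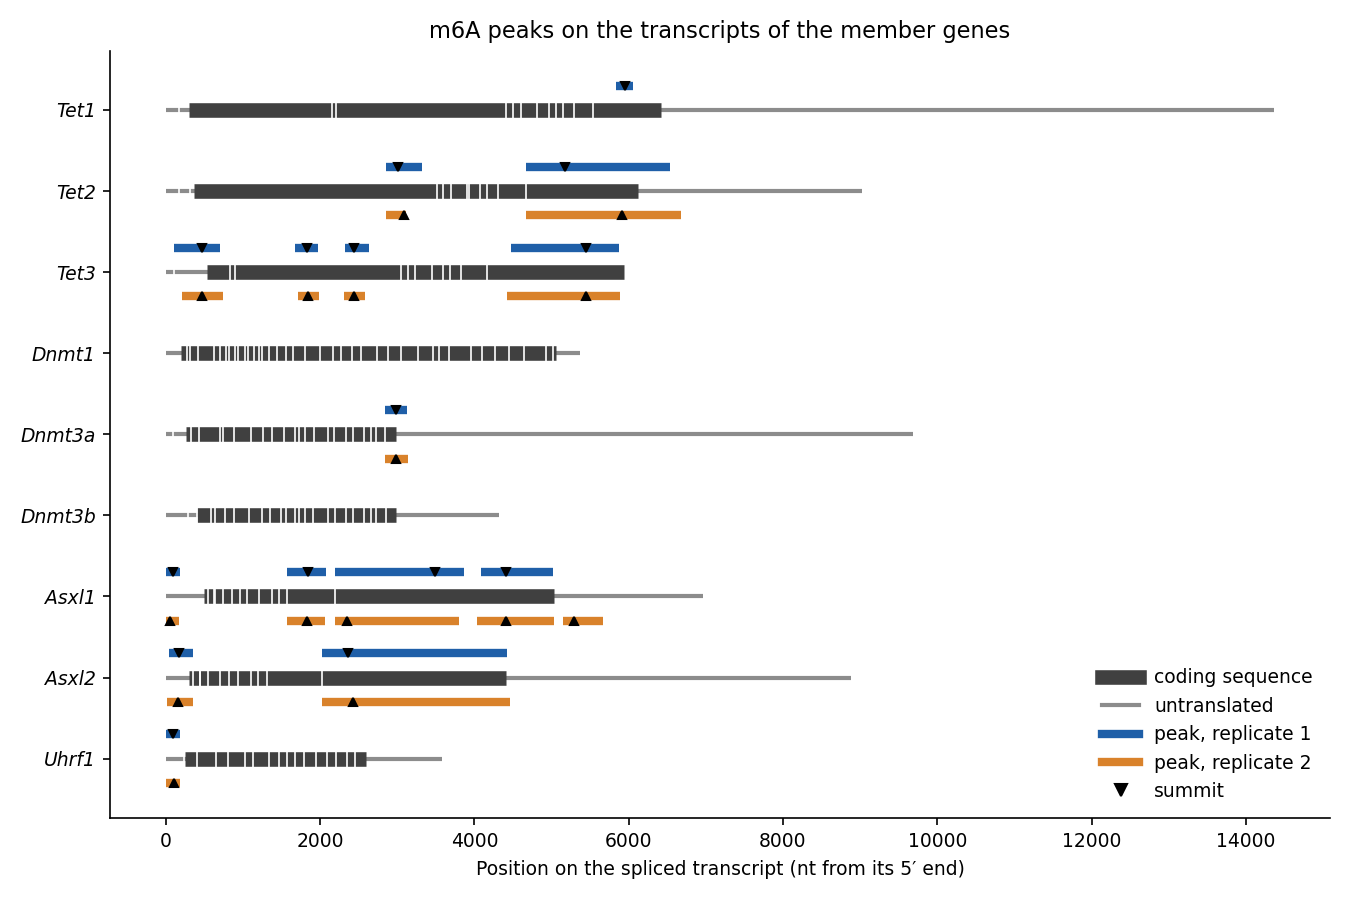
Peaks of both replicates along the spliced transcript of each member gene, in nt from its 5′ end, on the transcript with the longest coding sequence. Thick bars are coding sequence, thin lines untranslated regions and white ticks exon junctions, with replicate 1 peaks above and replicate 2 peaks below and a triangle at each summit. Tet2, Tet3, Asxl1 and Asxl2 are covered over long coding exons, Uhrf1 and Dnmt3a have 1 narrow peak each, and Dnmt1 and Dnmt3b have none.

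The map of peaks on transcripts shows 2 kinds of gene among the 6. In Asxl1, Tet3, Asxl2 and Tet2 the peaks covered much of the transcript. Covered length was 47.2% and 54.2% of the Asxl1 transcript in replicates 1 and 2, 44.0% and 42.8% of that of Tet3, 30.7% and 31.4% of that of Asxl2, and 25.9% and 25.2% of that of Tet2. The median over all genes with a peak was 17.9% and 18.2%. The chosen Tet3 transcript ends at the stop codon, and on the longest coding transcript of Tet3 (10904 nt, with a 3′ UTR of 5669 nt that holds no summit) the covered share was 18.6% and 18.5%, close to that median. In Uhrf1 (5.13% and 5.10%) and Dnmt3a (2.92% and 2.97%) a single narrow peak was found, and Dnmt3a lay near the bottom of all genes with a peak (4.25 and 4.16 percent of them were covered as little or less).

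The maintenance pair Dnmt1 and Uhrf1 came first by role. Dnmt1 (chr9:20907209-20959888, minus strand) has 39 exons, of which none reaches 400 nt, and the last exon has 353 nt. GGAC is the best known core of the m6A motif, although it is a DRACH only where no G follows. The Dnmt1 transcript holds 24 GGAC sites, or 4.47 per kb. The genes with a peak in both replicates have from 3.44 (Tet2) to 5.58 (Uhrf1) per kb. Dnmt1 had GGAC sites but no peak in either list. Whether its RNA was present at a level that could give a peak was not tested.

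Uhrf1 had 1 peak in each replicate, in its first exon, with the highest fold enrichment of the set in replicate 1 but not in replicate 2. This exon has 241 nt, and the summits lay in the 5′ UTR 166 nt and 143 nt before the start codon. The sequence around the only DRACH within the 205 bp that the peaks share is shown because no GGAC lies in that stretch. It is taken from GRCm38 on the strand of the gene, with the motif in capitals, and its A lay 21 nt and 2 nt from the summits.
Uhrf1 5′ UTR, chr17:56303417-56303441, plus strand: cagctggaagGAACCcgcgctctag

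In replicate 1 the Uhrf1 peak (chr17:56303287-56303504) had a fold enrichment of 9.56 (interval 7.44 to 12.1), −log10 q of 41.2 and 67 IP reads over 7 control reads. In replicate 2 (chr17:56303299-56303503) the fold enrichment was 5.0 (3.85 to 6.39), −log10 q 20.0 and the IP reads 62 over 11 control reads. Both replicates held the peak with like numbers of IP reads, but the counting intervals of the folds did not overlap, which held for no other of the 14 shared peaks of the set. The share of all pairs whose intervals do not overlap was not computed, and Uhrf1 was the largest difference of the 14. The replicate values differed 1.91-fold, and 5.95% of all 11524 pairs of overlapping peaks differed as much. Among the 7063 pairs with at least 50 IP reads in both replicates, as in Uhrf1, the share was 2.53%. The antibody also binds the dimethylated adenosine next to the mRNA cap (m6Am), and a peak at the 5′ end cannot be told apart from it. The peaks began 34 bp and 22 bp before the annotated start of the gene.

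Dnmt3a and Dnmt3b, the de novo methyltransferases, share 52.7% of aligned residues but differed in their peaks. Dnmt3a had 1 peak in each replicate, at the stop codon in exon 23 of 23. This last exon has 6838 nt, nearly all of it 3′ UTR, and nothing beyond the first stretch of it was called. The site nearest the summits is shown as the only member site at a stop codon. The A of this GGAC lay 5 nt and 7 nt from the summits, and the summits lay 1 nt to either side of the first base of the stop codon.
Dnmt3a 3′ UTR, chr12:3907739-3907762, plus strand: tgtgtgtaagGGACatgggggcaa

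The Dnmt3a peak had a fold enrichment of 2.75 (2.19 to 3.41) in replicate 1 (chr12:3907520-3907888), with −log10 q of 12.3 and 81 IP reads. In replicate 2 (chr12:3907559-3907893) the fold was 3.85 (3.08 to 4.76), −log10 q 19.9 and the IP reads 84. The summits were 2 bp apart and the folds 1.40-fold apart, within the spread of all pairs (25.3% differed at least as much). By contrast no peak was called in Dnmt3b, whose last exon has 1469 nt and whose transcript has 18 GGAC sites (4.17 per kb). Whether Dnmt3b RNA was present at a level that could give a peak was not tested.

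Of the Tet dioxygenases, Tet2 and Tet3 carried peaks in both replicates and Tet1 in 1. Each has long coding exons, an arrangement in which m6A is common. The site nearest to a summit in each peak is printed, with GGAC in capitals, or a DRACH where the shared stretch has no GGAC. The sequences are from the minus strand of GRCm38, where these genes lie. The Tet3 last exon and Tet1 sites have a G after GGAC.
Tet2 last exon, chr3:133467690-133467713: atccaaaccaGGACcatctcacca
Tet2 exon 3, chr3:133485986-133486009: ctcctcagaaGGACactcagaagc
Tet3 last exon, chr6:83368518-83368541: cagtggaagaGGACgaggaggaac
Tet3 exon 4, first peak, chr6:83403260-83403283: agcctcagaaGGACaggcaccgtt
Tet3 exon 4, second peak, chr6:83403857-83403881: cgtggggcacTGACAcccccccagc
Tet3 exon 2, chr6:83455092-83455115: gcaggagactGGACagtagtttaa
Tet1 last exon, chr10:62812957-62812980: agcaccccgaGGACgataacttgc

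Tet3 had 4 peaks in each replicate, and the summits of each lay within 6 bp of each other. The strongest by fold was at the start codon, in exon 2 (731 nt), with a fold enrichment of 5.17 (4.21 to 6.28) in replicate 1 and 6.12 (4.93 to 7.52) in replicate 2. Its summits lay 62 nt and 60 nt before the start codon and 11 nt and 9 nt from the GGAC printed for exon 2. Only 1 of the 5 annotated transcripts of Tet3 (comprehensive set) has this summit in an exon, so the peak speaks of that transcript form. The peak of the last exon (1784 nt) had a fold of 4.25 (3.58 to 5.02) and 3.90 (3.25 to 4.64), on 137 and 126 IP reads, with summits 489 nt and 490 nt before the stop codon. The GGAC there lay 4 nt and 5 nt from them.

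The other 2 Tet3 peaks lay in exon 4 (2158 nt). The one nearer the 3′ end, called the first here, had a fold enrichment of 3.09 and 2.82 with summits 1 bp apart and GGAC 5 nt and 6 nt away. The second, nearer the 5′ end, had a fold of 2.83 and 3.73 with summits 6 bp apart and no GGAC in the shared 259 bp, where the nearest DRACH lay 14 nt and 8 nt away. For all 4 peaks the counting intervals of the replicates overlapped, and each was within 1.32-fold between replicates.

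Tet2 had 2 peaks in each replicate. The peak of the last exon, exon 12 of 12 (4352 nt), was 1929 bp wide in replicate 1 (chr3:133466321-133468249) and 2105 bp in replicate 2 (chr3:133466176-133468280). Its fold enrichment was 5.41 (4.30 to 6.71) and 4.76 (3.83 to 5.85), with −log10 q of 30.2 and 27.4. The summits lay 940 nt and 207 nt before the stop codon, thus 733 bp apart, whereas the median distance over all pairs was 16 bp and 0.330% of pairs were as far apart. Within this broad peak 7 GGAC and 34 DRACH sites were counted, and the 2 lists placed the highest point over different ones. The peak of exon 3 (3206 nt) had a fold enrichment of 4.81 (3.54 to 6.40) on 45 IP reads in replicate 1 and 2.65 (1.90 to 3.62) on 38 in replicate 2, with −log10 q of 15.3 and 4.73. This was the second largest difference between replicates in the set, 1.81-fold, and 7.76% of all pairs differed as much.

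The Tet1 peak was found in replicate 1 only, in the coding part of the last exon (chr10:62812885-62813115). It had a fold enrichment of 4.01 (2.43 to 6.28), −log10 q of 4.803 and 17 IP reads over 4 control reads, the fewest reads of any member peak. It lay 461 nt before the stop codon, 27 nt from the GGAC printed above, and the 2 other long exons of Tet1, exon 2 (1982 nt) and exon 4 (2203 nt), had none. With so few reads the presence of m6A in Tet1 rests on 1 library.

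The positions in the 3 Tet genes were set side by side by aligning their translated coding sequences, which share 33.3% (Tet1 and Tet2), 41.2% (Tet1 and Tet3) and 37.4% (Tet2 and Tet3) of aligned residues. The Tet1 summit fell inside the last-exon peaks of both Tet2 and Tet3, at 62 nt from the Tet3 summit of replicate 1. The Tet2 exon 3 summits fell inside the first Tet3 exon 4 peak, 64 nt and 104 nt from its summit in replicates 1 and 2. The second Tet3 exon 4 peak aligned to no peak of Tet2, and the Tet3 start codon peak lies outside what was aligned. In 11 cases a printed coding site of the Tet or Asxl genes could be aligned with a family member, and in 8 of them the aligned place lay inside a peak of that gene. Peaks covered 25.2% to 54.2% of the chosen transcripts of Tet2, Tet3, Asxl1 and Asxl2, so such places can fall in a peak without a shared site. The share expected from this cover was not computed, and the cases include both directions of the same gene pairs. GGAC stood at the aligned place in 0 of the 11 cases, and a DRACH with the same A in 1, that of the Asxl1 exon 13 site in Asxl2.

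Asxl1 and Asxl2, the Bap1 cofactors, had peaks in their first exons and over their long last exons. The sites below are from the plus strand of GRCm38, again with GGAC in capitals, or a DRACH where the stretch shared between replicates has no GGAC. The last is the place of Asxl2 aligned with the Asxl1 exon 13 site, shown because it was the most alike of the 11 aligned sites, with 19 of 24 bases identical, and its capitals mark the 4 bases aligned with GGAC. With the base that follows they form a DRACH.
Asxl1 5′ UTR, chr2:153345874-153345898: tacccacggcAGACAcgcacgcatc
Asxl1 exon 12, chr2:153397694-153397717: agcaacatctGGACaggagggtcc
Asxl1 exon 13, first peak, chr2:153399344-153399367: actggtgccaGGACcctcgcagac
Asxl1 exon 13, second peak, chr2:153401300-153401323: cagacagatgGGACcctgagtgat
Asxl2 5′ UTR, chr12:3426946-3426969: agcggcagcaGGACcggccacccc
Asxl2 exon 12, chr12:3500437-3500460: agtgcctacgGGACttgccagcag
Asxl2 aligned with the Asxl1 exon 13 site, chr12:3500072-3500095: acaggagccaGAACtctggcagac

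Asxl1 had 4 peaks in replicate 1, as many as Tet3, and 5 in replicate 2, the most of the set there. Of all genes with a peak, 4.76% had 4 or more in each replicate, and 1.45% had 5 or more in replicate 2. In exon 12 (625 nt) the fold enrichment was 3.71 (3.07 to 4.44) and 2.96 (2.45 to 3.54), on 116 and 117 IP reads. Exon 13 (4769 nt) held a broad peak of 1772 bp and 1723 bp with a fold of 3.59 and 3.83, and behind it a peak with a fold of 3.07 and 3.30. The latter had its summits 616 nt and 615 nt before the stop codon. In the broad peak the summits were 1143 bp apart, which only 0.104% of all pairs reached, although the folds differed just 1.07-fold. A peak in the 3′ UTR, 266 nt after the stop codon, was called in replicate 2 only, with a fold of 2.42, −log10 q of 6.43 and 63 IP reads.

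At the 5′ end of Asxl1 the peak of exon 1 had a fold enrichment of 3.52 (2.24 to 5.30) on 21 IP reads in replicate 1 and 5.15 (3.43 to 7.45) on 26 in replicate 2, with −log10 q of 4.74 and 8.93. The counting intervals overlapped. The peak overlaps an exon of 2500004C02Rik, a noncoding gene on the minus strand, in the comprehensive annotation. Since peaks carry no strand, the 2 genes cannot be told apart there, and as in Uhrf1 neither can m6Am.

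In Asxl2 1 peak covered the coding part of exon 12. It spanned 2503 bp in replicate 1 (chr12:3499886-3502388) and 2524 bp in replicate 2 (chr12:3499904-3502427), the widest of the set, with a fold enrichment of 4.19 (3.52 to 4.96) and 5.49 (4.56 to 6.55). The summits were 55 bp apart, and 12 GGAC and 60 DRACH sites lay in the shared stretch. The first exon (356 nt) had a peak with a fold of 6.37 (4.62 to 8.59) and 5.04 (3.57 to 6.92), on 41 and 36 IP reads, with summits 126 nt and 138 nt before the start codon. As in Uhrf1, this peak near the 5′ end cannot be told apart from m6Am. Exon 11 of Asxl2 (712 nt), next to last like exon 12 of Asxl1, had no summit. On the alignment of both proteins (36.1% of aligned residues identical) the exon 12 summits of Asxl1 fell in no Asxl2 peak, and those of both exon 13 peaks fell within the broad peak of Asxl2.

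**Figure D2:**
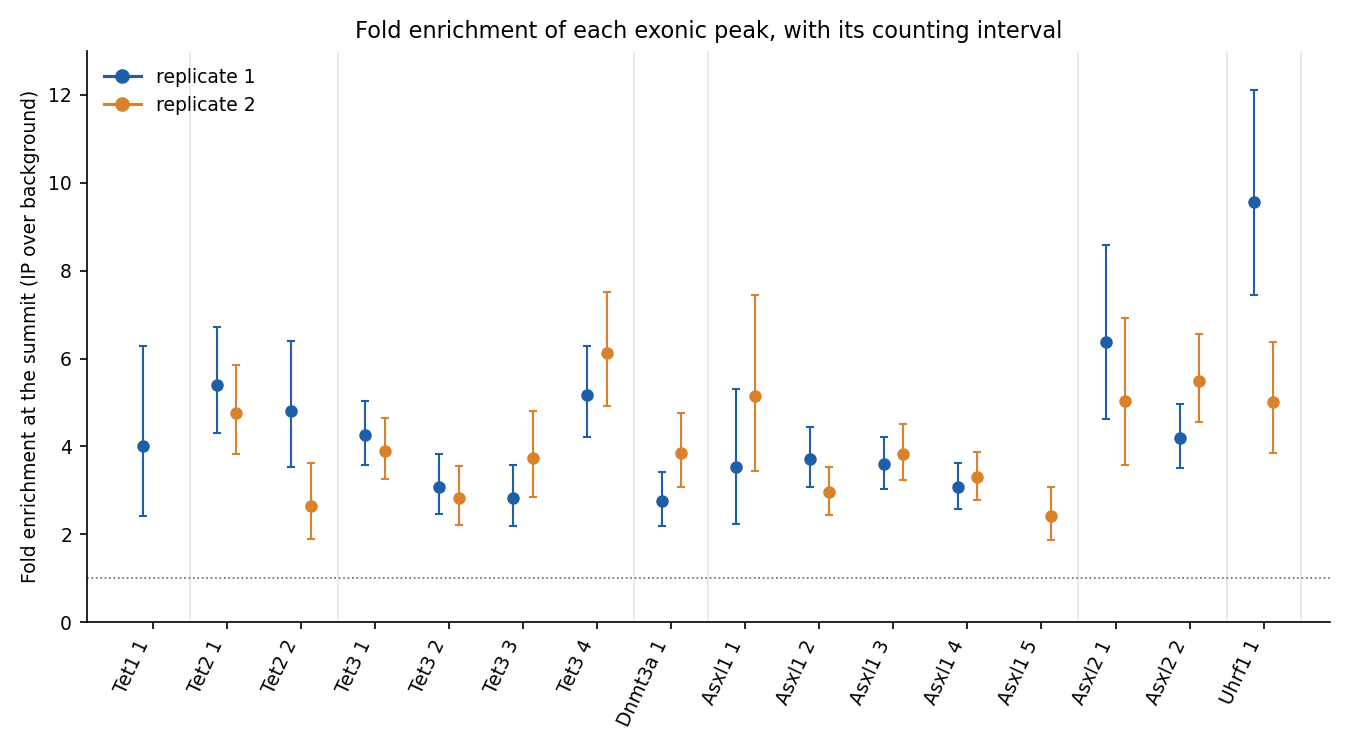
Fold enrichment at the summit of every exonic peak of the member genes, in linear units of IP over background, with replicate 1 in blue and replicate 2 in orange. Peaks are numbered along the plus strand of the chromosome, bars are exact 95% Poisson intervals of the IP reads with the background held fixed, and the dotted line is a fold of 1. Uhrf1 in replicate 1 stands highest at 9.56, and its bars are the only pair that do not overlap.

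The plot of fold enrichment by peak shows that the members cannot be put in a firm order. By the geometric mean over replicates of each gene's peak of highest −log10 q, the order was Uhrf1 (6.91), Tet3 (5.10), Tet2 (5.07), Asxl2 (4.795), Asxl1 (3.71) and Dnmt3a (3.26). The replicate values of neighbouring genes overlapped at each step but 1. This step was from Asxl2 (4.19 and 5.49) to Asxl1 (3.59 and 3.83). Even there the counting intervals overlapped, with 3.52 to 4.96 for Asxl2 in replicate 1 and 3.24 to 4.51 for Asxl1 in replicate 2. For Tet3 the peak chosen was the last-exon peak in replicate 1 and the start codon peak in replicate 2.

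**Figure D3:**
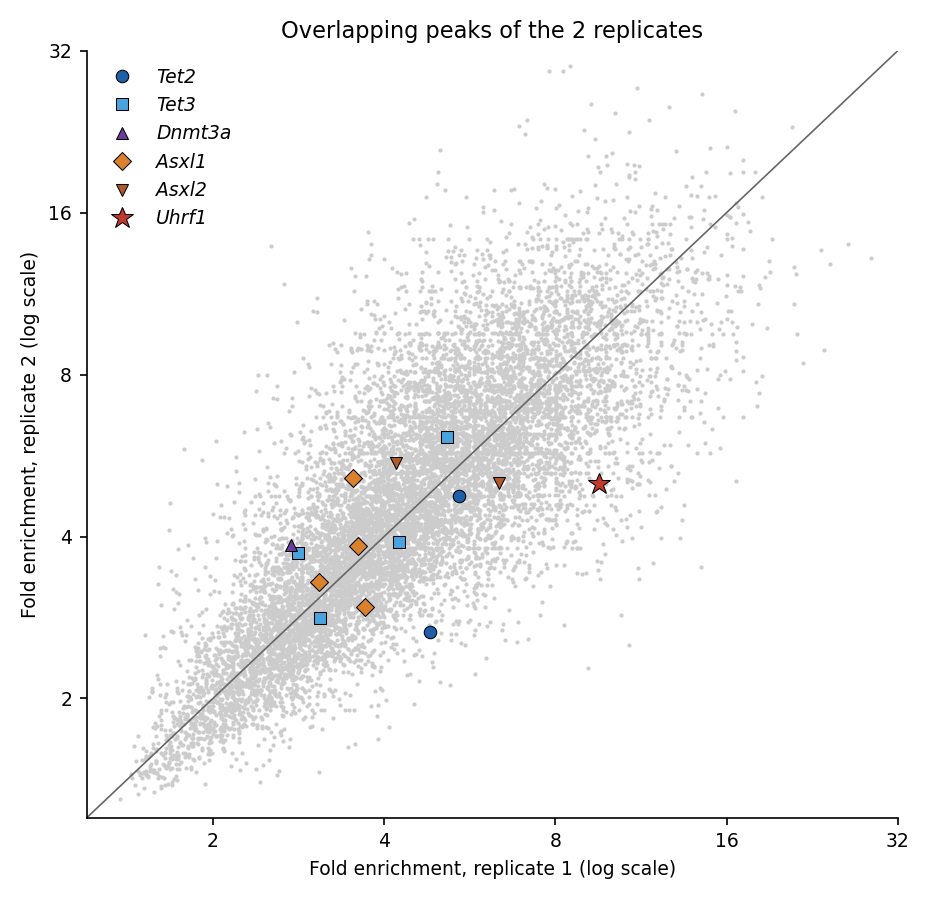
Fold enrichment in replicate 1 and replicate 2, both on log axes, for all 11524 one-to-one pairs of overlapping peaks (grey) and the 14 pairs of the member genes (coloured by gene). The line marks equal folds. Member pairs lie on both sides of it, 7 higher in each replicate, and Uhrf1 and the Tet2 exon 3 peak lie farthest from it.

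Between replicates the members were repeated about as well as other peaks. In each replicate 14 of 15 member peaks overlapped a peak of the other (93.3%, exact Clopper-Pearson 95% interval 68.1 to 99.8, from 7 genes in replicate 1 and 6 in replicate 2). Over all summits placed on a coding transcript this held for 85.5% in replicate 1 and 87.7% in replicate 2, which lie inside that interval. The interval takes the peaks as independent, although several come from the same gene, and the same 14 pairs give both shares. The 2 member peaks without an overlap were the Tet1 peak and the 3′ UTR peak of Asxl1. The plot of replicate pairs shows no common shift of the members, since 7 of the 14 pairs were higher in replicate 1 and 7 in replicate 2. Summits were within 10 bp of each other in 7 pairs and over 500 bp apart in 2, both of them broad peaks. Among all 200 pairs at least 1500 bp wide in both replicates, 18.5% had summits over 500 bp apart.

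**Figure D4:**
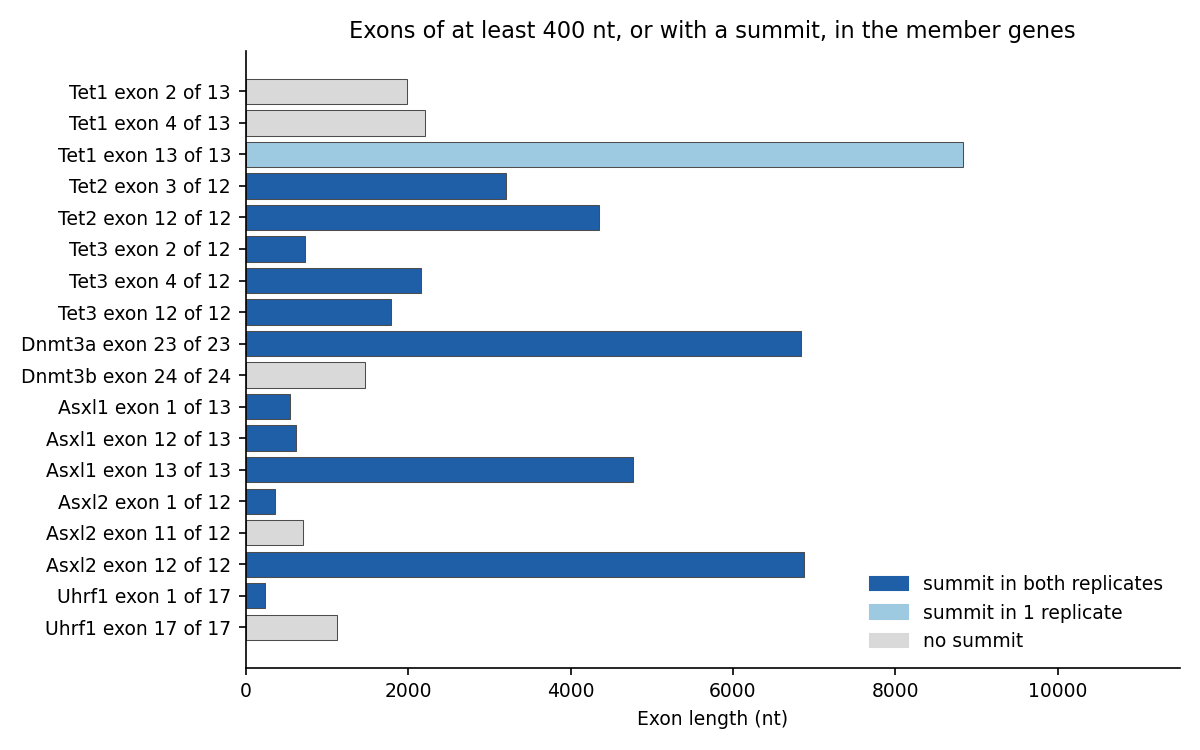
Length in nt of each exon of the member genes that has at least 400 nt or holds a summit, coloured by whether a summit lay in it in both replicates, in 1 or in none. Summits lie in 10 of the 16 exons of at least 400 nt in both replicates, and the only shorter exons with a summit are the first exons of Asxl2 and Uhrf1.

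The members' peaks shared their place in long exons, as the plot of exon lengths shows. Of the 165 exons of the 9 chosen transcripts, 16 had at least 400 nt, and of these 10 held a summit in both replicates and 1 more, the last exon of Tet1, in replicate 1. Of the 149 shorter exons only 2 held a summit, namely the first exons of Asxl2 and Uhrf1. These counts take no account of length. Exons of at least 400 nt made up 31.5% of the Uhrf1 transcript and 70.6% to 90.6% of those of the other members with a peak. The long exons without a summit were exons 2 and 4 of Tet1, exon 11 of Asxl2 and the last exons of Dnmt3b and Uhrf1. This is the pattern of the series at large, since 13 of 15 member summits (86.7%) lay in such exons in each replicate, beside 86.7% and 86.8% of all placed summits.

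Where along the mRNA the summits lay was less usual. Only the Dnmt3a summit was within 200 nt of a stop codon, thus 1 of 15 (6.67%) in each replicate, whereas the share of all placed summits was 30.7% and 29.8%. In the coding sequence away from both ends were 10 (66.7%) and 9 (60%), beside 34.0% and 33.8% of all. Start codons held 3 of 15 in each replicate (20.0%), beside 14.7% and 15.4%. The 15 peaks come from 7 genes, up to 5 of them from 1 gene, and are not independent, so these shares are a description. The Tet2 summit of replicate 2 missed the 200 nt window by 7 nt. A summit is 1 point of a peak, and the broad last-exon peaks of Tet2 and Asxl2 extended over the stop codon in both replicates. The second exon 13 peak of Asxl1 did so in replicate 2 only. In the broad peaks of Tet2 and Asxl1 the summits lay 733 bp and 1143 bp apart between replicates.

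GGAC lay within 50 nt of the summit in 8 of 15 peaks (53.3%) of replicate 1 and 6 of 15 (40%) of replicate 2, close to the 56.1% and 56.0% of all placed summits. A DRACH lay there in 13 and 14 of 15, against 93.3% of all. The sites printed above fall into near and far ones. In 6 of the 14 shared peaks, those of Tet3, Dnmt3a and Uhrf1, the site lay within 25 nt of both summits. The printed sites were picked for being nearest a summit, so this count cannot show that motifs lie closer than elsewhere. The share within 25 nt over all peaks was not computed. In the peaks of the Asxl genes and Tet2 the printed site lay farther from at least 1 summit, which for broad peaks with many motifs says little of the modified base. The assay does not resolve single bases, and a motif under a summit is not by itself a modified site.

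The median fold enrichment of the members was 4.01 in replicate 1 and 3.85 in replicate 2, a little below the 4.10 and 4.27 of all placed summits. The median −log10 q was higher (25.9 and 19.9, beside 16.7 and 16.2), as were the IP reads at the summit (81 and 84, beside 72 and 70). These medians describe peaks from 7 genes and were not tested.

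The partners of these enzymes were read in the same way from a list of 20 genes. Of these 13 carried a peak in both replicates and 7 in neither (Dnmt3l, Asxl3, Idh1, Mbd2, Hells, Wt1 and Usp7), beside 30.9% of all protein-coding genes with one in both. The list was chosen with earlier results of these data known, so its count is a description and cannot show enrichment. Idh2 is a mitochondrial isocitrate dehydrogenase that makes the 2-oxoglutarate used by Tet enzymes. It had the highest fold of the list, 13.9 and 15.7, in its first exon near the start codon, on 25 and 32 IP reads. So high a fold on so few IP reads means a very low background, and no counting interval is given for it. As for the first-exon peaks of the members, m6Am was not told apart at this Idh2 peak. Its cytosolic relative Idh1 had no peak. Cxxc5, which binds CpG-rich DNA, had a fold of 7.35 and 11.97.

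Readers of methylated DNA and their Mbd family relatives were split. The strongest peak of Zbtb33 (Kaiso) had a fold enrichment of 6.13 and 5.28, and that of Mbd4, a glycosylase that binds methylated DNA, 5.52 and 5.34, both in coding sequence. Mbd1 (2.87 and 2.69) and Mbd3 (1.62 and 1.75) had lower folds at or near the stop codon, and Mbd2 had no peak. Bap1, the deubiquitinase that Asxl proteins assist, had a peak at the stop codon with 2.51 and 2.25.

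Among the remaining partners, Uhrf2, the relative of Uhrf1, had 2 peaks in replicate 1 and 1 in replicate 2. The strongest by −log10 q, taken in each replicate separately, had folds of 2.28 and 4.48 in coding sequence, with −log10 q of 6.67 and 23.1. These 2 values may come from different peaks. Ogt, a glycosyltransferase bound by Tet proteins, had 1.98 and 1.58. Tdg, which excises the bases that Tet enzymes produce, had 2.59 and 2.76 in the 3′ UTR. Pcna, the replication clamp, had 2.34 and 1.93 at the start codon, and Kdm1b, a histone demethylase, had 3.56 and 3.26 at the stop codon.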

How the data were processed

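m6A meRIP-seq of 4 samples (2 IP, 2 input) was used through 1 peak list per IP replicate. The authors aligned reads to GRCm38 with HISAT2 and called peaks per replicate with MACS2 2.1.1.20160309 without model building. The threshold, effective genome size and control library are not given in the sources used here. The deposited lists give, per peak, the fold enrichment (ratio of IP to background), −log10 p and −log10 q, a score that follows −log10 q, and the offset of the summit. The smallest −log10 q is 1.31 and 1.30.

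Summits were placed in exons of the GENCODE M21 basic set and on the transcript with the longest coding sequence. IP reads were computed from the fold and p under the formulas of MACS2, and whole reads matched 100% of peaks within 0.001 in −log10 p (tested on simulated data). Shared peaks overlap by at least 1 bp. Sequences are those of GRCm38. Translated coding sequences were aligned with BLOSUM 62, gap opening 11 and extension 1. With 1 condition and 2 replicates, no p-value was computed. Every member is named with its exonic peaks and the listed partners with their strongest peak, except 1 counted partner whose values are not reported here. Members, partners and markers were chosen with earlier results of these data known. Alternatives were any exon overlap, the comprehensive annotation, minimum fold or −log10 q, other windows and motifs, and single replicates. Python 3.11.15, scipy 1.17.1 and Biopython 1.88 were used.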

Additional observations from a re-analysis of the deposited data

Results flagged for a closer look

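In addition to the exonic peaks, 2 peaks of replicate 1 had their summit in an intron of a member gene, and so are not used by the exon rule. One was in intron 1 of Tet2 (chr3:133514090-133514298), with a fold enrichment of 5.82, −log10 q of 7.37 and 15 IP reads over 2 control reads. This peak overlaps exon 2 of Tet2 by 84 bp, and its summit lies 4 bp outside that exon. The other lay wholly in intron 6 of Dnmt3a (chr12:3879588-3879850), with a fold of 7.80, −log10 q of 9.16 and 10 IP reads over a background equal to 0.469 control reads. No peak of replicate 2 overlapped either of them, and neither summit lies in an exon of the comprehensive annotation.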

How the results depend on the processing

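The number of member genes with a peak in both replicates was 6 under any exon overlap, the comprehensive annotation, the removal of summits in several genes, and −log10 q of at least 3 or 5. It was 4 with a fold of at least 4, where Dnmt3a and Asxl1 were lost, 6 with replicate 2 alone and 7 with replicate 1 alone, where Tet1 is added. With −log10 q of at least 5, the Tet1 peak, the Tet2 exon 3 peak of replicate 2 and the Asxl1 5′ UTR peak of replicate 1 were lost. The pathway count of 13 became 6 with a fold of at least 4 and was 12 or 13 otherwise. The share of member peaks found in the other replicate (93.3%) was 80% when summits had to lie within 100 bp, 90.3% with any exon overlap, 71.4% with a fold of at least 4 and 88.9% with −log10 q of at least 5. Summits near the stop codon (6.67%) were 13.3% with a window of 400 nt, 7.14% on the longest transcript, 0% with a fold of at least 4 and 7.42% with −log10 q of at least 5. Summits with GGAC (46.7% over both replicates) were 66.7% with a window of 100 nt, and 90.0% had a DRACH within 50 nt. With the strongest peak chosen by fold, Asxl2 had 5.91 and Asxl1 4.37. Their replicate values then overlapped, with 6.37 and 5.04 for Asxl2 and 3.71 and 5.15 for Asxl1. The median fold of member peaks ranged from 3.854 to 4.005 over single replicates. The cause of these changes was not tested beyond the fewer peaks or wider windows of each setting. No paired analysis was possible because the IP samples form 1 group. Peaks with few reads limit Tet1 and the 5′ UTR of Asxl1 most.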
